A study of Mus musculus with 18 samples.

Results

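Described here are 9 protein-coding genes of mouse chromosome 11, the chromosome that carries Arrb2, the gene of β-arrestin 2: Kctd11, Mgl2, Clec10a, Nlrp1a, Xaf1, Tlcd2, Sp6, Meox1 and Cd300lg. They were picked from 23351 genes of the deposited table because their levels differed in the lung libraries labelled β-arrestin 2 −/−, with no stated cut-off. Every comparison that contains those libraries was therefore used in the choice, and its values are given below as a description without a test. All 9 passed the filter on low counts that left 15388 genes for testing. Nlrp1a passed it only through wild type and β-arrestin 1 −/− libraries, where it is higher.

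The 9 genes have different known roles. Clec10a and Mgl2 encode C-type lectins of macrophages and dendritic cells that bind galactose-type sugars. Nlrp1a encodes a sensor that assembles an inflammasome, the complex that activates caspase-1, and Xaf1 encodes an interferon-induced protein that binds and opposes XIAP, an inhibitor of caspases. Cd300lg encodes nepmucin, an immunoglobulin-family receptor of vascular endothelium to which lymphocytes bind. Meox1 encodes a homeobox transcription factor of somite development, and Sp6 a zinc-finger factor known from tooth and skin. Kctd11 encodes an adaptor of a CUL3 ubiquitin ligase that restrains hedgehog signalling, and Tlcd2 a membrane protein which in human cells affects the composition of membrane lipids.

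Lungs of male C57BL/6 mice gave 18 RNA libraries in 6 groups of 3. The hypoxic groups were labelled β-arrestin 2 −/−, β-arrestin 1 −/− and wild type, and spent 4 weeks at the air pressure found at 18000 feet, where the labels put the oxygen pressure (PAO2) near 70 mmHg. The normoxic groups had the same 3 genotypes and were held for those weeks at ordinary altitude, at about 150 mmHg. All mice entered at 8 to 12 weeks and are labelled 12 to 16 weeks old. β-Arrestins are adaptors that shut off activated G protein-coupled receptors and pass their signals to other partners. Nothing in the labels ties each library to a separate animal, and p-values reflect only how much these libraries vary. No promoter, Cre or other detail of the alleles is named there.

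Totals per library were 16806806 to 25983090 fragments, and 16840 to 17432 genes had a fragment. The 2 libraries of lowest total were β-arrestin 1 −/− hypoxia replicate 2 and the normoxic library labelled β-arrestin 2 −/− with replicate number 0. Summed alveolar epithelial markers, among them the surfactant genes Sftpc and Sftpb, stood at 9923 to 17521 CPM (fragment counts scaled to library size) in every library. Arrb1 in β-arrestin 1 −/− lungs was at 83.7, 88.8 and 90.7 CPM in hypoxia, against 405, 399 and 302 CPM in wild type. In normoxic libraries labelled β-arrestin 2 −/− Arrb1 was lower too, at 262, 287 and 319 CPM against 474, 464 and 478 CPM in wild type (log2 change -0.70 ± 0.12, edgeR quasi-likelihood test over all genes, adjusted p = 0.00435), while in hypoxia it was at 370, 364 and 359 CPM there. Arrb2 was at 30.7, 37.8 and 34.6 CPM in hypoxic libraries labelled β-arrestin 2 −/−, against 33.5, 40.2 and 43.3 CPM in hypoxic wild type, and the groups overlap. In normoxia it was at 46.5, 38.9 and 36.6 CPM, against 31.5, 30.2 and 35.1 CPM in wild type. The total level of Arrb2 thus does not bear out the label of these 6 libraries, which are called B2-labelled from here on. The labels do not describe the allele, and levels of single exons or of protein were not examined.

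The 9 genes are neighbours of Arrb2 only in part. On mm10, Arrb2 lies on chromosome 11 from 70432580 to 70440828 on the plus strand. Kctd11 (69878264 to 69880985, minus strand, 1 exon) starts 0.55 Mb below it, and Mgl2 (70130357 to 70137542, plus strand, 10 exons) starts 0.30 Mb below it. Clec10a (70166623 to 70170836, plus strand, 10 exons) follows Mgl2 after 29.1 kb. Nlrp1a (71091197 to 71144704, minus strand, 14 exons) lies 0.66 Mb above Arrb2, and Xaf1 (72301629 to 72313733, plus strand, 6 exons) lies 1.87 Mb above it. Tlcd2 (75468079 to 75470644, plus strand, 5 exons) lies 5.04 Mb away, with 128 genes of the table between. The other 3 genes are far: Sp6 (97013569 to 97024738, plus strand, 2 exons) at 26.58 Mb, Meox1 (101877510 to 101894354, minus strand, 3 exons) at 31.44 Mb, and Cd300lg (102041511 to 102055617, plus strand, 8 exons) at 31.61 Mb. Meox1 and Cd300lg lie 147.2 kb from each other, and 480 to 685 table genes separate these 3 from Arrb2. Exon numbers are those of the coding transcript with the most exons in GENCODE M21.

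Promoters of Xaf1 and Nlrp1a are shown because these 2 genes had the largest log2 changes of the 9 in B2-labelled hypoxia, in opposite directions. Each run covers 250 bases before and 50 after the gene's start in RefSeq on GRCm38.p6, read 5′ to 3′ on the gene's strand, and 5 of the 9 genes were matched in that table (Kctd11, Mgl2, Nlrp1a, Xaf1 and Tlcd2). Capitals mark matches, on either strand, to AANNGAAA, the core bound by interferon regulatory factors, and to TGANTCA, an AP-1 site. The letters are those of the reference genome and not of these animals. The Xaf1 promoter is chr11:72301379-72301678 (plus strand) and the Nlrp1a promoter is chr11:71144655-71144954 (minus strand).
Xaf1: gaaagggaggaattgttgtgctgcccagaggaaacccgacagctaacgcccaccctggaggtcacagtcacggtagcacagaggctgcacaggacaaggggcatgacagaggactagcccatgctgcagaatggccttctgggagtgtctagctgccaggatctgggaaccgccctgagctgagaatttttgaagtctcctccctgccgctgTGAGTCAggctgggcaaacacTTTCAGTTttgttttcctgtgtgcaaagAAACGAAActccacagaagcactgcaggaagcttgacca
Nlrp1a: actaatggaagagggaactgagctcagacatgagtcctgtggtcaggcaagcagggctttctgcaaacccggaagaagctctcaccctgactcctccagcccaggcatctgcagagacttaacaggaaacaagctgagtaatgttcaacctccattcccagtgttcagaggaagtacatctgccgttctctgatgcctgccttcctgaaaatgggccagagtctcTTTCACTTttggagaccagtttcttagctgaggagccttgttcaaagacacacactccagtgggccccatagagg
Of the 5 matched promoters, 2 hold AANNGAAA (Xaf1 and Nlrp1a), against 23.9% of 32851 RefSeq promoters. TGANTCA is in 2 (Xaf1 and Kctd11), against 7.8% of all. ACGTG, the core of the hypoxia response element, is in 0 of the 5, against 19.6% of all. The motifs do not overlap in the runs shown, and a match says nothing of binding.

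Clec10a and Mgl2 are shown side by side because their likeness bears on how fragments could be assigned. Their coding sequences (924 and 1143 bases in GENCODE M21) are 89.2% identical over 916 aligned bases, with 1 identical run of 183 bases and 27.66% of the 50-base stretches of Clec10a shared. The first line is a 90-base stretch that is the same in both, from coding base 279 in Clec10a and 327 in Mgl2. The others are the least alike 90-base stretch, with the 8 differing bases in capitals, from coding base 676 in Clec10a and 724 in Mgl2.
Clec10a and Mgl2, same: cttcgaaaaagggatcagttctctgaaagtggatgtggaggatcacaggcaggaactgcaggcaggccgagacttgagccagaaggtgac
Clec10a, least alike: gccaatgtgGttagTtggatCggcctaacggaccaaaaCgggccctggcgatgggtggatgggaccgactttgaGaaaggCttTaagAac
Mgl2, least alike: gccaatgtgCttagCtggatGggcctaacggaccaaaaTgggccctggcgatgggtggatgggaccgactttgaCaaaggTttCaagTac
Nlrp1a and its neighbour Nlrp1b are 86.3% identical over 3528 aligned coding bases, with a longest identical run of 102 bases and 1.4% of 50-base stretches shared. How the authors' counting split fragments within such pairs is not given in the sources used here, so the levels of these 4 genes are uncertain. The kit does not mark strand. Of the exon bases of Sp6, 86.7% are also covered by Gm11532, a transcript on the opposite strand, so fragments of Sp6 and Gm11532 cannot be told apart. Tlcd2 shares 10.6% of its exon bases with Mir22hg on the same strand.

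Levels of the lectin genes are given first, in CPM, which compares libraries within a gene. Clec10a was at 1.91, 1.92 and 1.44 CPM in B2-labelled hypoxia, against 1.48, 1.61 and 2.26 CPM in wild type hypoxia. In normoxia it was at 6.92, 4.97 and 4.72 CPM in B2-labelled libraries, against 1.47, 1.24 and 2.34 CPM in wild type. The groups overlap in hypoxia, while in normoxia all 3 B2-labelled libraries are above all 3 wild type ones, with a log2 change of 1.71 ± 0.32 (SE) and -0.02 ± 0.33 in hypoxia. Mgl2 was at 7.24, 8.86 and 10.9 CPM in B2-labelled hypoxia, against 11.1, 15.7 and 14.1 CPM in wild type hypoxia. In normoxia Mgl2 was at 20.2, 21.0 and 20.1 CPM in B2-labelled libraries, against 15.2, 15.3 and 17.9 CPM in wild type. Mgl2 thus lay below wild type in every B2-labelled library in hypoxia (log2 change -0.60 ± 0.16) and above it in every one in normoxia (0.34 ± 0.16). Between exposures, B2-labelled libraries had lower values in hypoxia for both lectins, with log2 changes of -1.65 ± 0.32 for Clec10a and -1.18 ± 0.16 for Mgl2.

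The inflammasome sensor Nlrp1a was close to 0 in B2-labelled lungs. Its fragments numbered 0, 3 and 0 in B2-labelled hypoxia, against 9, 19 and 14 in wild type hypoxia. In normoxia they numbered 3, 1 and 0 in B2-labelled libraries, against 11, 9 and 14 in wild type. The ratio of summed fragments, corrected for library size, was 0.0727 in hypoxia (3 against 42 fragments, 95% counting interval 0.0144 to 0.227) and 0.115 in normoxia (4 against 34, 0.0297 to 0.323), and these intervals cover counting error only. The fitted log2 change in hypoxia, -3.62, was -6.7 without B2-labelled hypoxia replicate 1, the library that holds the 3 fragments. Every B2-labelled library is below every wild type one. Its paralogue Nlrp1b did not follow it: Nlrp1b was at 0.607, 1.25 and 0.958 CPM in B2-labelled hypoxia, against 0.304, 0.847 and 0.956 CPM in wild type hypoxia, which overlap. In normoxia Nlrp1b was at 1.78, 2.35 and 2.22 CPM in B2-labelled libraries, against 0.734, 0.861 and 1.10 CPM in wild type, and all 3 B2-labelled libraries are higher.

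Xaf1 was higher in every B2-labelled library than in any other. It was at 118, 95.1 and 84.9 CPM in B2-labelled hypoxia, against 15.2, 20.8 and 24.9 CPM in wild type hypoxia. In normoxia Xaf1 was at 128, 111 and 123 CPM in B2-labelled libraries, against 19.9, 18 and 21.8 CPM in wild type. The 6 B2-labelled libraries, at 84.9 to 128 CPM, stand apart from all 12 others, at 15.2 to 31.5 CPM. The log2 change over wild type was 2.29 ± 0.22 in hypoxia and 2.60 ± 0.22 in normoxia, or 4.89-fold and 6.06-fold. Tlcd2, the membrane protein gene, was at 6.37, 5.69 and 4.40 CPM in B2-labelled hypoxia, against 1.43, 1.23 and 1.80 CPM in wild type hypoxia. In normoxia Tlcd2 was at 3.98, 6.49 and 7.02 CPM in B2-labelled libraries, against 1.56, 2.15 and 2.25 CPM in wild type. The B2-labelled libraries are again above all 12 others, whose highest value is 2.25 CPM, and the log2 changes were 1.88 ± 0.24 in hypoxia and 1.55 ± 0.23 in normoxia.

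**Figure D1:**
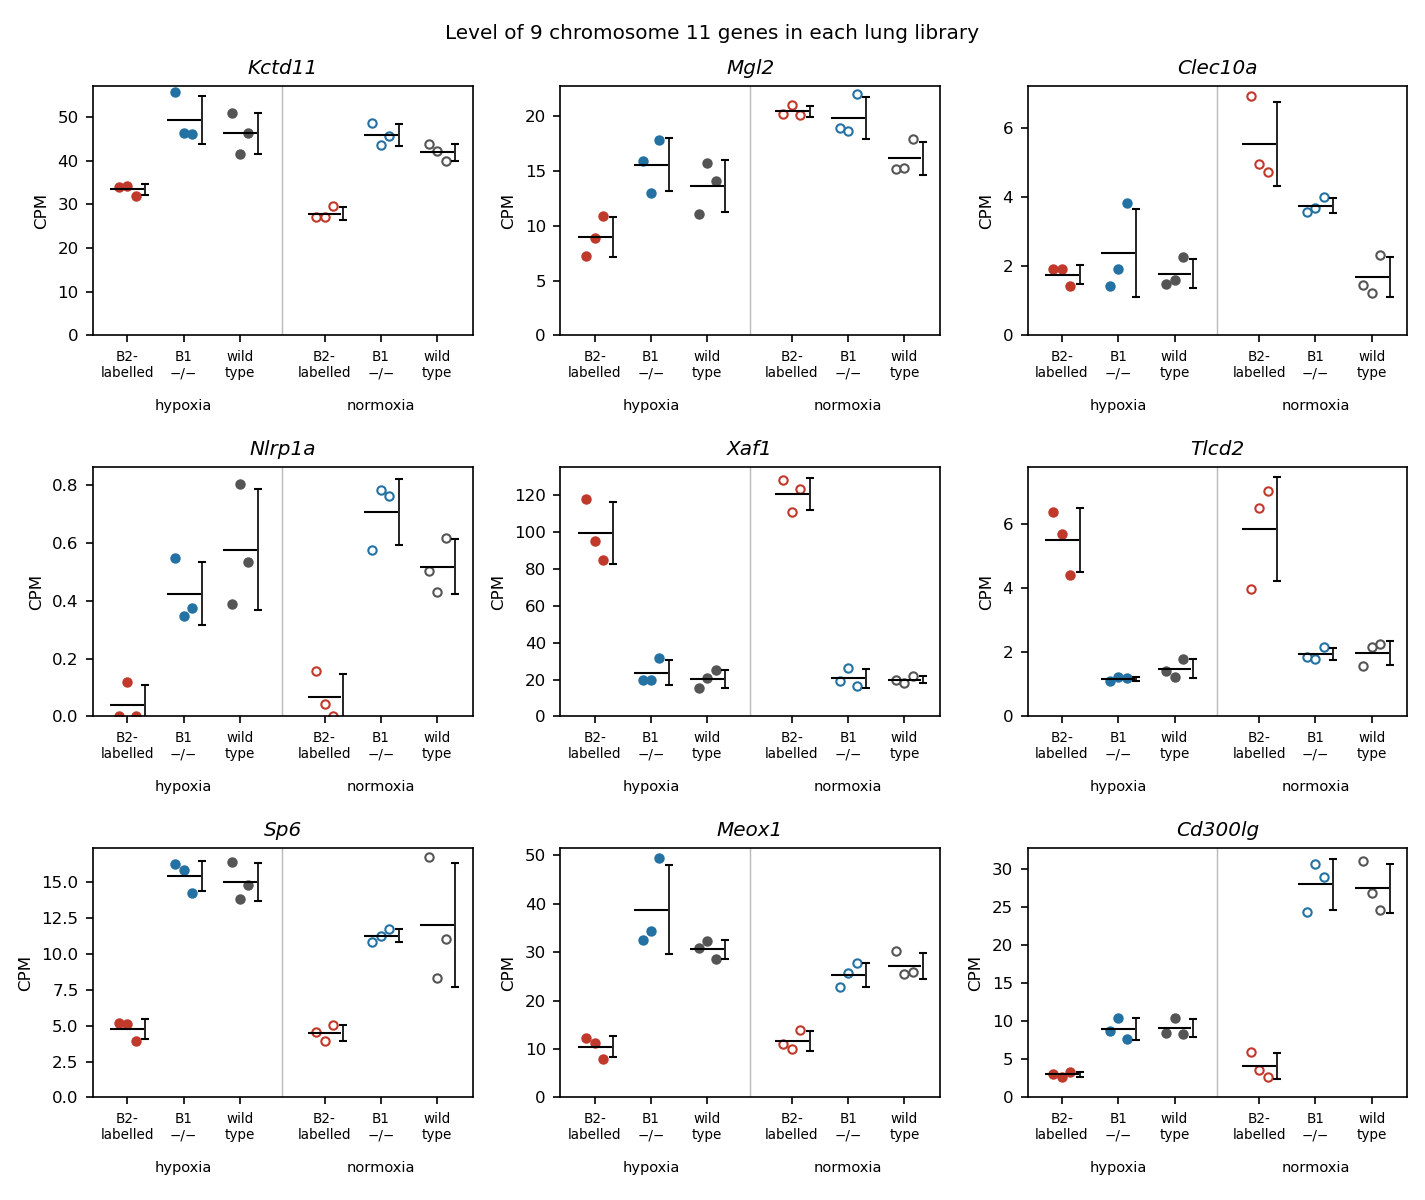
CPM (y axis, linear from 0) of each of the 9 genes in each library, with hypoxic groups filled and normoxic groups open, and the mean (line) and SD (bar) of 3 libraries per group. Xaf1 and Tlcd2 are higher in all 6 B2-labelled libraries than in the other 12, and Kctd11, Nlrp1a, Sp6, Meox1 and Cd300lg are lower, while Mgl2 and Clec10a overlap.

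Cd300lg, the endothelial receptor gene, was lower in B2-labelled lungs than in either other genotype. Cd300lg was at 3.03, 2.67 and 3.40 CPM in B2-labelled hypoxia, against 8.52, 10.5 and 8.33 CPM in wild type hypoxia. In normoxia Cd300lg was at 5.98, 3.62 and 2.66 CPM in B2-labelled libraries, against 31.0, 26.8 and 24.6 CPM in wild type. No value of the 6 B2-labelled libraries reaches those of the 12 others, which begin at 7.63 CPM. The log2 changes were -1.59 ± 0.23 in hypoxia and -2.76 ± 0.23 in normoxia. The homeobox gene Meox1 was at 12.3, 11.2 and 8.02 CPM in B2-labelled hypoxia, against 30.8, 32.3 and 28.5 CPM in wild type hypoxia. In normoxia Meox1 was at 11, 9.98 and 13.9 CPM in B2-labelled libraries, against 30.2, 25.4 and 25.9 CPM in wild type. Its B2-labelled libraries lie below all 12 others, and the log2 changes were -1.54 ± 0.18 in hypoxia and -1.22 ± 0.18 in normoxia.

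Sp6, counted together with any Gm11532 fragments, was at 5.20, 5.14 and 3.92 CPM in B2-labelled hypoxia, against 16.4, 13.8 and 14.8 CPM in wild type hypoxia. In normoxia Sp6 was at 4.56, 3.92 and 5.04 CPM in B2-labelled libraries, against 16.7, 8.27 and 11 CPM in wild type. The B2-labelled libraries are lowest in both exposures, with log2 changes of -1.65 ± 0.20 in hypoxia and -1.41 ± 0.20 in normoxia. Kctd11, the hedgehog regulator, moved least among the 7 genes that stood apart: it was at 34.0, 34.2 and 32 CPM in B2-labelled hypoxia, against 50.9, 41.4 and 46.4 CPM in wild type hypoxia. In normoxia Kctd11 was at 27.1, 27.0 and 29.5 CPM in B2-labelled libraries, against 43.7, 42.2 and 39.8 CPM in wild type. Its log2 changes were -0.47 ± 0.10 in hypoxia and -0.59 ± 0.10 in normoxia.

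Seen as a whole, CPM did not overlap between B2-labelled and wild type libraries for 8 of the 9 genes in hypoxia (17.5% of all tested genes) and for 9 of 9 in normoxia (44.1%). In the same direction in both exposures this held for 7, 2 higher and 5 lower (2.81%), and the same 7 separated the 6 B2-labelled libraries from the 12 others (0.331%). A log2 change of at least 1 in size in both exposures was seen for 6 of the 9 (0.702%). With hypoxia in B2-labelled lungs CPM did not overlap for 3 of the 9 (47.9%). Nothing is read from these counts, since the contrast chose the genes. In whole lung, fewer cells of a type and less RNA per cell cannot be told apart.

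Levels were compared between genes in FPKM, fragments scaled by the authors to gene length and library size. Xaf1 led the 9 genes in B2-labelled libraries, at a mean of 36.8 FPKM in hypoxia and 44.2 FPKM in normoxia. In wild type Kctd11 led instead, at 16.2 FPKM in hypoxia and 14.7 FPKM in normoxia, with Meox1 next at 13.5 FPKM in hypoxia and 12.0 FPKM in normoxia. Ranges over libraries did not overlap between those 2 leading genes in wild type in either exposure. In B2-labelled hypoxia, Mgl2, Tlcd2 and Meox1 (5.92, 5.19 and 4.65 FPKM) overlapped in range, as did Sp6, Cd300lg and Clec10a (1.33, 1.21 and 1.20 FPKM). Nlrp1a was last in all 6 groups, with group means of at most 0.136 FPKM.

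Whether chronic hypoxia moves these genes was tested within β-arrestin 1 −/− lungs and within wild type lungs, in comparisons that hold no B2-labelled library. Both lines may have served as comparators when the genes were picked, since the choice names none. Cd300lg fell in both. It was at 8.74, 10.5 and 7.63 CPM in β-arrestin 1 −/− hypoxia, against 24.3, 30.7 and 29.0 CPM in β-arrestin 1 −/− normoxia. In wild type it was at 8.52, 10.5 and 8.33 CPM in hypoxia, against 31.0, 26.8 and 24.6 CPM in normoxia. The hypoxic libraries lie below all normoxic ones in each genotype. The log2 change was -1.64 ± 0.22 in β-arrestin 1 −/− (edgeR quasi-likelihood test, adjusted p = 0.000978, n = 3 against 3) and -1.59 ± 0.21 in wild type (adjusted p = 0.00079). Without β-arrestin 1 −/− hypoxia replicate 2 the first value was -1.54 ± 0.24 (edgeR adjusted p = 0.00338).

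Of the 9 genes, Cd300lg alone was called at an adjusted p of 0.05 in each genotype, 1 of 9 against 2.95% of all tested genes in β-arrestin 1 −/− and 4.76% in wild type. In β-arrestin 1 −/− lungs CPM of the exposures did not overlap for 6 of the 9 (21.2% of all tested genes), 2 higher and 4 lower, and in wild type for 1 (24.7%). Meox1 was at 32.5, 34.4 and 49.4 CPM in β-arrestin 1 −/− hypoxia, against 22.7, 25.6 and 27.7 CPM in β-arrestin 1 −/− normoxia. Its hypoxic libraries are all above the normoxic ones, led by the library of lowest total, and its log2 change of 0.61 ± 0.18 missed the threshold (edgeR adjusted p = 0.0757; 0.242 without that library). DESeq2 called it (adjusted p = 0.0215), and the authors' deposited table gives a q-value of 0.01. In wild type the change of Meox1 was 0.17 ± 0.18 (edgeR adjusted p = 0.678).

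Other changes with hypoxia in β-arrestin 1 −/− lungs did not pass the edgeR test. Tlcd2 had 1.10, 1.22 and 1.19 CPM in hypoxia, against 1.85, 1.80 and 2.15 CPM in normoxia, which do not overlap (log2 change -0.72 ± 0.25, adjusted p = 0.148). Sp6 had 16.2, 15.8 and 14.2 CPM in hypoxia, against 10.8, 11.2 and 11.7 CPM in normoxia, also without overlap (0.46 ± 0.19, adjusted p = 0.229). Clec10a had 1.42, 1.92 and 3.82 CPM in hypoxia, against 3.57, 3.69 and 3.99 CPM in normoxia, where the library of lowest total holds the value of 3.82 CPM. Its log2 change was -0.67 ± 0.32 (edgeR adjusted p = 0.28) with that library and -1.16 ± 0.29 (adjusted p = 0.0474) without it. Mgl2 had -0.35 ± 0.16, Nlrp1a -0.72 ± 0.51, Xaf1 0.19 ± 0.21 and Kctd11 0.10 ± 0.10 as log2 changes, with edgeR adjusted p of 0.26 to 0.661.

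Hypoxia in wild type left the remaining genes within narrower bounds. Apart from Cd300lg, log2 changes ran from -0.42 ± 0.24 (Tlcd2) to 0.32 ± 0.19 (Sp6), and none passed the test. The median over the 9 was 0.08, against 0.00 over all genes, and in β-arrestin 1 −/− it was -0.35, against 0.02. The difference between the hypoxia responses, β-arrestin 1 −/− minus wild type, was called for 0 of the 9 genes and 0 of 15388 (0.0%) by edgeR. At an unadjusted p under 0.05 it counted 0 of the 9 and 898 of all, and DESeq2 and limma called 0 of the 9. For Cd300lg that difference was -0.05 ± 0.30, with an approximate 95% interval of -0.64 to 0.54. For Meox1 it was 0.44 ± 0.25 (-0.04 to 0.93) and for Clec10a -0.75 ± 0.46 (-1.65 to 0.15). These intervals leave room for small or moderate differences, and that of Clec10a for a difference as large as -1.65.

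**Figure D2:**
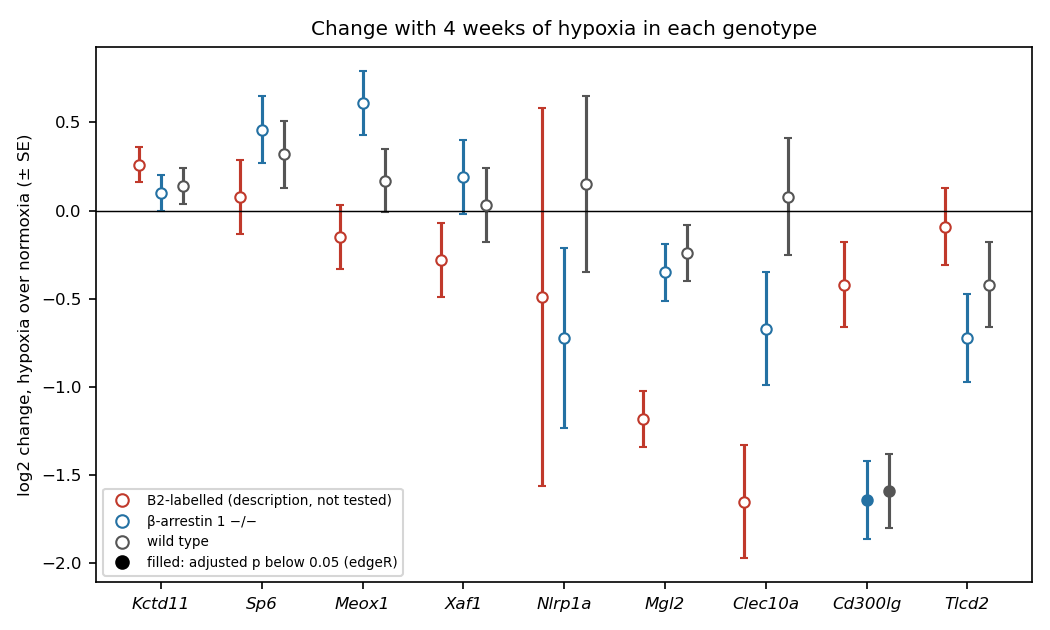
Log2 change of hypoxia over normoxia (y axis, ± SE) of each gene in B2-labelled, β-arrestin 1 −/− and wild type lungs, with filled points where edgeR's adjusted p was under 0.05. Cd300lg is filled in β-arrestin 1 −/− (-1.64) and wild type (-1.59), and the lectin genes are lowest in B2-labelled lungs, where no test was made.

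Within B2-labelled lungs the log2 change of Cd300lg with hypoxia was -0.42 ± 0.24, beside -1.64 in β-arrestin 1 −/− and -1.59 in wild type, and its exposures overlap there. Its B2-labelled normoxic libraries, at 2.66 to 5.98 CPM, were already below the hypoxic wild type ones, at 8.33 to 10.5 CPM. The B2-labelled response without normoxic replicate number 0 was -0.04. Capillary endothelial markers were measured beside it: of 18, edgeR called 2 higher and 1 lower with hypoxia in β-arrestin 1 −/− (16.7%, against 2.95% of all tested genes), and 2 higher and 3 lower in wild type (27.8%, against 4.76%). With 1 library left out these counts were 1 to 3 in β-arrestin 1 −/−, the lowest without normoxia replicate 1, and 2 to 5 in wild type, the lowest also without normoxia replicate 1. Plvap, the protein of endothelial diaphragms, fell in both, with log2 changes of -2.38 ± 0.25 in β-arrestin 1 −/− (edgeR adjusted p = 0.000184) and -2.79 ± 0.25 in wild type (1.96e-05). Emcn, an endothelial sialomucin, rose by 1.17 in β-arrestin 1 −/− and by 1.00 in wild type (edgeR adjusted p = 0.00841 and 0.0157). The summed markers were at 10036 to 10661 CPM in β-arrestin 1 −/− hypoxia against 9818 to 10984 CPM in normoxia, and at 7549 to 9829 CPM in wild type hypoxia against 10797 to 11824 CPM in normoxia. None was at 0 in any group, and their part in the change of Cd300lg was not tested.

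The same markers in the comparison that chose the genes gave 0 calls of 18 in hypoxia, B2-labelled against wild type by edgeR (1 by DESeq2), and 2 higher and 3 lower in normoxia (27.8%, against 9.49% of all tested genes). Without B2-labelled normoxia replicate 0 the normoxic count was 0 and 2.04% of all genes were called. It was also 0 without any 1 of the wild type libraries, and 1 without B2-labelled replicate 1. Their sums were 9263 to 9819 CPM in B2-labelled hypoxia against 7549 to 9829 CPM in wild type hypoxia, and 8010 to 10212 CPM in B2-labelled normoxia against 10797 to 11824 CPM in wild type normoxia. Meox2, the relative of Meox1 and a capillary marker, averaged 17 CPM in B2-labelled normoxia and 27.8 CPM in wild type normoxia (log2 change -0.71 ± 0.19, edgeR adjusted p = 0.0331). Other markers moved in B2-labelled normoxia too: 6 of 10 airway epithelial genes were higher than in wild type by edgeR (60%, against 9.49% of all tested genes), and 3 of 7 cardiac muscle genes (42.9%). Scgb3a1, a secretoglobin of airway cells, was at 627, 241 and 106 CPM in B2-labelled normoxia, against 4.31, 14.7 and 14.7 CPM in wild type (log2 change 4.85 ± 0.99, edgeR adjusted p = 0.0107). Tnnt2, cardiac troponin T, was at 1091, 150 and 70.3 CPM, against 55.8, 11 and 61.1 CPM in wild type. Replicate 0 is highest for both genes, and without it 2 of 10 airway and 0 of 7 cardiac genes were called. Leaving out B2-labelled replicate 1 gave 3 airway and 2 cardiac calls, and leaving out 1 wild type library gave 2 or 3 airway and 0 cardiac calls. The summed airway markers were at 5555 to 10048 CPM in B2-labelled normoxia against 3777 to 5875 CPM in wild type normoxia, with Krt5 at 0 in wild type. The summed cardiac markers were at 455 to 5447 CPM in B2-labelled normoxia against 71.5 to 360 CPM in wild type normoxia, with none at 0 in either group. In hypoxia 0 of either list was called between B2-labelled and wild type by edgeR or DESeq2. The part of these cells in the values of the 9 genes was not tested.

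Between β-arrestin 1 −/− and wild type lungs edgeR called 0 of the 9 genes in hypoxia (0.201% of all tested genes) and 0 in normoxia (0.221%). These comparisons share libraries with those that chose the genes. At an unadjusted p under 0.05 the counts were 0 in hypoxia (11.3% of all tested genes) and 1 in normoxia (8.71%). DESeq2 called 0 and 1 of the 9, and limma called 0 in both, with no share over all genes given beside them. CPM did not overlap for 2 genes in hypoxia (9.79% of all), Meox1 higher and Tlcd2 lower, and for 2 in normoxia (22.6%), Clec10a and Mgl2, both higher. Clec10a was at 3.57, 3.69 and 3.99 CPM in β-arrestin 1 −/− normoxia, against 1.47, 1.24 and 2.34 CPM in wild type normoxia, and at 6.92, 4.97 and 4.72 CPM in B2-labelled normoxia. Its log2 change of 1.15 ± 0.32 missed edgeR's threshold (adjusted p = 0.219), while DESeq2 called it (adjusted p = 0.048) and the authors' deposited table gives a q-value of 0.00494. For Xaf1 the change was 0.21 ± 0.21 in hypoxia and 0.05 ± 0.21 in normoxia, and for Cd300lg -0.02 ± 0.22 in hypoxia and 0.03 ± 0.21 in normoxia. Approximate 95% intervals for Xaf1 ran from -0.20 to 0.63 in hypoxia and from -0.37 to 0.47 in normoxia.

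Dendritic cell and macrophage markers were set beside the lectin genes. Of 19 dendritic cell markers, B2-labelled hypoxia against B2-labelled normoxia had 2 higher and 9 lower by edgeR (57.9%, against 21.9% of all tested genes; 6 to 11 called with 1 library left out, the lowest without replicate 0 of either group), among them the chemokine genes Ccl22 (-2.30 ± 0.28, adjusted p = 0.000155) and Ccl17 (-2.19 ± 0.38, adjusted p = 0.0015). In the same comparison 6 of 12 interstitial macrophage markers were lower and 0 higher (50%; 2 to 5 lower with 1 library left out, the lowest without hypoxia replicate 0, hypoxia replicate 2 or normoxia replicate 2). The summed dendritic markers were at 2493 to 2974 CPM in B2-labelled hypoxia against 2693 to 3112 CPM in B2-labelled normoxia, and the macrophage markers at 575 to 703 CPM against 815 to 1016 CPM. Against wild type, 3 of 19 dendritic markers were lower in B2-labelled hypoxia (0.923% of all tested genes were called; 1 to 6 with 1 library left out, the highest without wild type replicate 0), led by Ccl22, and 0 of 19 were called in normoxia by edgeR or DESeq2. The summed dendritic markers in wild type were at 2777 to 4944 CPM in hypoxia and 2129 to 2934 CPM in normoxia.

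Macrophage markers were also compared with wild type in B2-labelled normoxia, where both lectins were higher. Summed interstitial macrophage markers were at 815 to 1016 CPM in B2-labelled normoxia against 1209 to 1423 CPM in wild type normoxia, without overlap. Lyve1, a hyaluronan receptor of these cells and of lymphatic vessels, was at 321, 426 and 497 CPM against 816, 1033 and 913 CPM in wild type (log2 change -1.15 ± 0.16, edgeR adjusted p = 0.00183). It was the 1 called of 12 (8.33%, against 9.49% of all tested genes). Averaging 414 CPM against 921 CPM in wild type, Lyve1 held a large part of both sums. The median log2 change of the 12 was 0.29, beside 0.04 over all genes, so the lower sum does not stand for the other markers. In hypoxia the sums overlapped, at 575 to 703 CPM in B2-labelled and 564 to 625 CPM in wild type lungs. There Lyve1 was higher (0.82 ± 0.16, edgeR adjusted p = 0.0244) and the chemokine receptor gene Cx3cr1 lower (-1.38 ± 0.30, adjusted p = 0.0414), 2 of 12 (16.7%, against 0.923% of all tested genes). With 1 library left out 0 to 2 of the 12 were called, 0 without B2-labelled replicate 1 or 2. Of 11 alveolar macrophage markers, Ctsk (0.60 ± 0.14, edgeR adjusted p = 0.0214) and Pparg (0.44 ± 0.13, adjusted p = 0.0423) were higher in B2-labelled normoxia (18.2%, against 9.49% of all tested genes). The count was 0 without replicate 0 or 1 or without wild type replicate 0 or 1, and 0 of 11 were called in hypoxia by edgeR or DESeq2. These sums were at 401 to 431 CPM in B2-labelled normoxia against 322 to 428 CPM in wild type normoxia. None of the dendritic or macrophage markers was at 0 in any of these groups. Their part in the values of Clec10a and Mgl2 was not tested. With hypoxia in wild type 4 of 19 dendritic markers were higher and 0 lower (4.76% of all tested genes were called; 0 to 9 with 1 library left out, 0 without hypoxia replicate 2 or normoxia replicate 0 or 1, 9 without hypoxia replicate 0), while Mgl2 changed by -0.24 ± 0.16 and Clec10a by 0.08 ± 0.33.

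Genes of the pathways in which the 9 take part were described from lists. Xaf1 belongs to the interferon-stimulated genes, and of 35 such genes and XIAP partners, edgeR called 0 between B2-labelled and wild type lungs in hypoxia (0.923% of all tested genes) and 0 in normoxia (9.49%), and DESeq2 called 0 and 1. Their median log2 change was 0.00 in hypoxia and 0.06 in normoxia, beside -0.01 and 0.04 over all genes. Their summed level was 1892 to 2424 CPM in B2-labelled hypoxia against 1835 to 2011 CPM in wild type hypoxia, and 2087 to 2281 CPM in B2-labelled normoxia against 2006 to 2185 CPM in wild type normoxia. With hypoxia in B2-labelled lungs 8 of the 35 were lower and 1 higher (25.7%, near the 21.9% of all tested genes; 2 called without normoxia replicate 0 and 3 without hypoxia replicate 2), among them Mx1 (-1.80 ± 0.36, adjusted p = 0.00322) and Oas1a (-1.28 ± 0.31, adjusted p = 0.0105), both antiviral effectors. With hypoxia in β-arrestin 1 −/− the 1 called gene was Ifit3 (0.87 ± 0.21, edgeR adjusted p = 0.0326), and 0 were called without hypoxia replicate 2 or normoxia replicate 0 or 2.

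Of 20 inflammasome genes, which include Nlrp3, Casp1 and Il1b, the 1 called between B2-labelled and wild type lungs was Nlrp1b in normoxia, at 2.12 CPM against 0.90 CPM (log2 change 1.23 ± 0.33, edgeR adjusted p = 0.0311), and 1 of 20 is below the share of all genes called there (5%, against 9.49%). Nlrp1b was no longer called once any 1 of the 6 libraries was left out. In hypoxia 0 of the 20 were called by edgeR and 1 by DESeq2, and the change of Nlrp1b was 0.41 ± 0.35. Of 15 hedgehog genes, edgeR called 0 in B2-labelled hypoxia against wild type (1 by DESeq2) and 1 in normoxia (6.67%, again below 9.49%), so neither list stood apart from all genes by its count. That gene, Hdac1, a deacetylase that the KCTD11 ligase targets, averaged 15.1 CPM in B2-labelled normoxia and 5.60 CPM in wild type normoxia (1.43 ± 0.22, adjusted p = 0.00311). Hdac1 was also called in β-arrestin 1 −/− against wild type, at 2.19 ± 0.23 in hypoxia and 1.84 ± 0.22 in normoxia (edgeR adjusted p = 9.33e-05 and 0.000724), where Kctd11 changed by 0.09 ± 0.10 and 0.13 ± 0.10. Gli1, Gli2, Ptch1 and Smo, the core of that pathway, were not called in either of these genotype comparisons.

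Of 41 tested relatives of the 9 genes, edgeR called 1 lower between B2-labelled and wild type hypoxia, and 3 higher and 2 lower in normoxia (12.2%, near the 9.49% of all tested genes). These calls were lost in some fits with 1 library left out. In normoxia 0 remained without B2-labelled replicate 0, where fewer of all genes were called too. In hypoxia 0 remained without any 1 of the B2-labelled libraries. The 1 in hypoxia was Cd300ld, of the receptor family of Cd300lg, at 1.68 CPM in B2-labelled and 4.10 CPM in wild type lungs (-1.28 ± 0.28, adjusted p = 0.0399). In normoxia Asgr1, a galactose-binding lectin gene that lies 2 tested genes below Mgl2, was higher (1.16 ± 0.26, edgeR adjusted p = 0.0153). With hypoxia 2 of 41 were higher in each of β-arrestin 1 −/− and wild type (4.88%, against 2.95% and 4.76% of all tested genes). Clec7a, the β-glucan receptor dectin-1, was among them in β-arrestin 1 −/− (1.23 ± 0.28, edgeR adjusted p = 0.0268) and in wild type (1.12 ± 0.28, adjusted p = 0.0321). In β-arrestin 1 −/− 0 of the 41 were called without hypoxia replicate 2 or any 1 normoxic library, and in wild type 0 without hypoxia replicate 2 or normoxia replicate 0 or 1.

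How far the rest of chromosome 11 moved with the 9 genes was read from all its tested genes. Within 5 Mb of Arrb2, the 9 genes and Arrb2 left out, edgeR called 3 of 168 genes between B2-labelled and wild type lungs in hypoxia (1.79%, all lower) and 33 of 168 in normoxia (19.6%, 20 higher and 13 lower). On other chromosomes the shares were 0.836% in hypoxia and 9.35% in normoxia, and more than 10 Mb away on chromosome 11, again without the 9 genes, they were 1.16% (11 of 948) and 8.76% (83 of 948). Within 1 Mb they were 1.32% (1 of 76) and 25.0% (19 of 76). The share near Arrb2 was thus larger than the pooled share of the other chromosomes in both exposures, with 3 genes behind it in hypoxia. This difference in shares was not tested. Chromosome 17 had a higher share in hypoxia, at 4.71% (36 of 765), and every other chromosome a lower one. Most 10 Mb stretches beyond 10 Mb were lower too, but those from 30 Mb above Arrb2 onward were higher. They had 3.64% at 30 to 40 Mb (6 of 165, Meox1 and Cd300lg counted in), 2.96% at 40 to 50 Mb (4 of 135) and 2.22% at 50 to 60 Mb (1 of 45). In normoxia chromosome 17 had 14.5% and those stretches 12.1%, 6.67% and 2.22%, all below the 19.6% within 5 Mb. Leaving out 1 library moved the count within 5 Mb to between 0 and 4 in hypoxia and between 8 and 28 in normoxia, the lowest without wild type normoxia replicate 1 or B2-labelled normoxia replicate 0 (8 each); without that B2-labelled library 2.04% of all genes were called, and without that wild type library 2.27%. Of the 168 genes, Tmem88, 1.04 Mb below Arrb2, was the 1 called in both exposures, lower in hypoxia (-0.88 ± 0.19, edgeR adjusted p = 0.0397) and higher in normoxia (0.65 ± 0.19, adjusted p = 0.0467). The median size of log2 change within 5 Mb was 0.13 in hypoxia and 0.27 in normoxia, beside 0.14 and 0.26 over all genes. In β-arrestin 1 −/− against wild type 0 of 168 were called in either exposure by edgeR, and that median was 0.18 in hypoxia and 0.13 in normoxia, beside 0.16 and 0.12 over all genes.

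**Figure D3:**
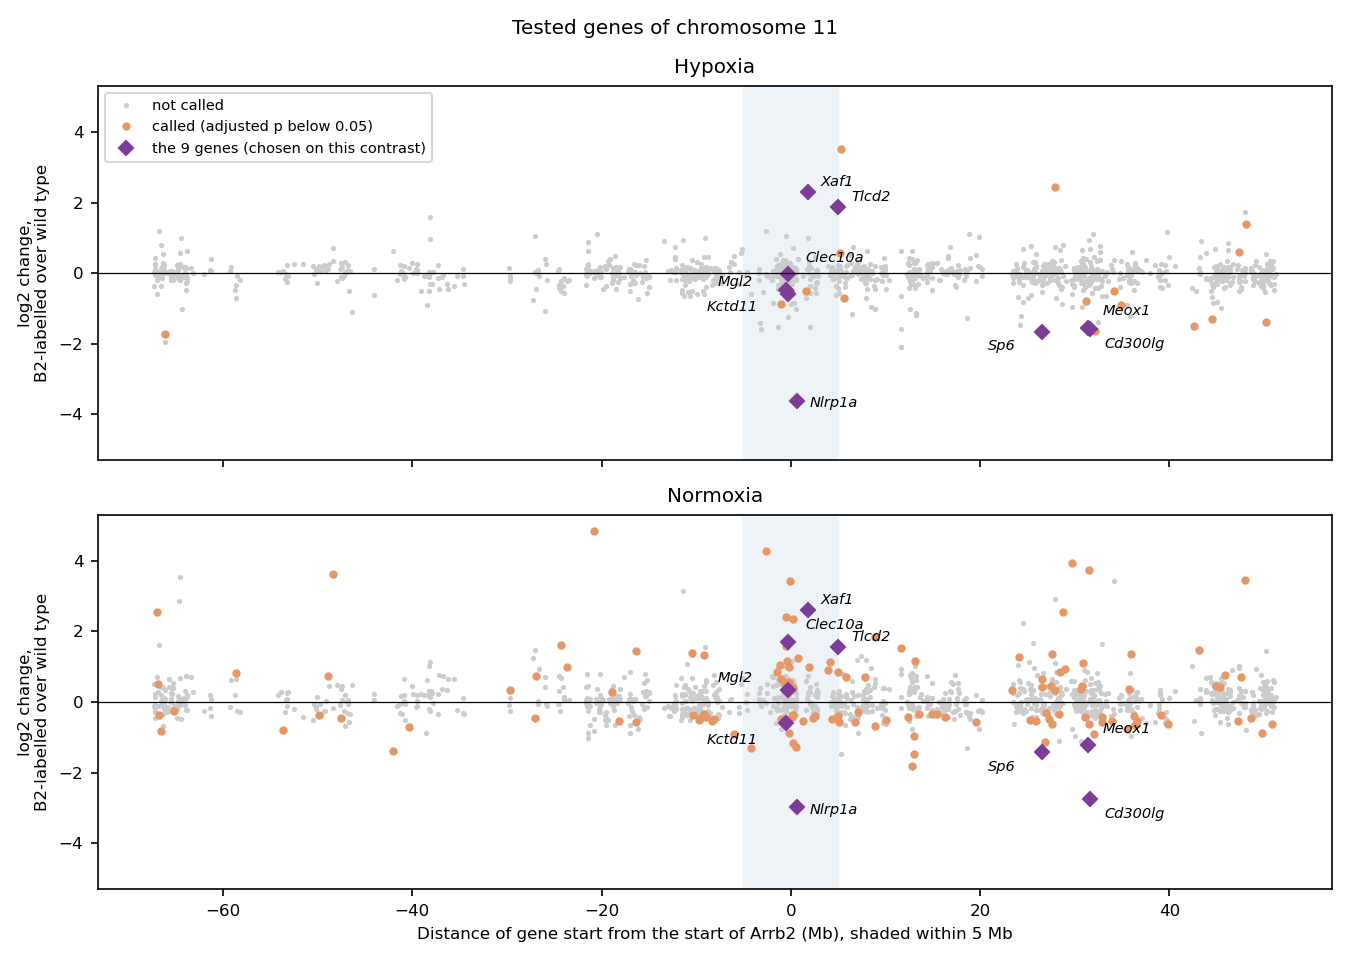
Log2 change of B2-labelled over wild type lungs (y axis) of each tested chromosome 11 gene against the distance of its start from that of Arrb2 (x axis, Mb), in hypoxia above and normoxia below, with called genes in orange and the 9 genes as diamonds. Xaf1 and Tlcd2 stand high and Nlrp1a, Sp6, Meox1 and Cd300lg stand low in both panels, and 26 to 32 Mb separate the last 3 from Arrb2.

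**Figure D4:**
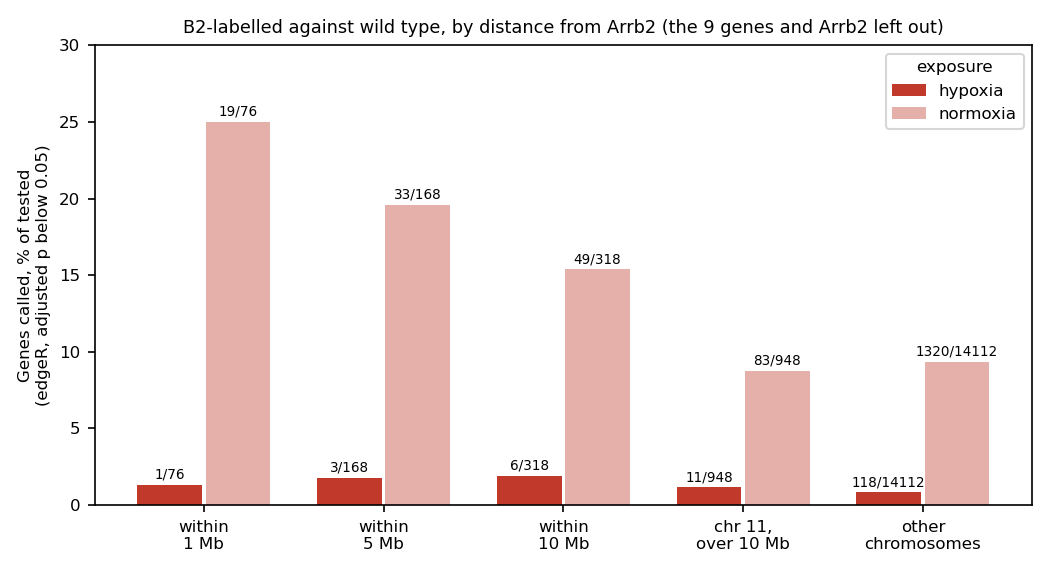
Share of tested genes (y axis, %) called by edgeR between B2-labelled and wild type lungs, by distance from Arrb2 (x axis; the windows are nested, and the 9 genes and Arrb2 are left out), in hypoxia and normoxia, with called and tested genes over each bar. In normoxia the share is 25.0% within 1 Mb and 9.35% on other chromosomes, and in hypoxia no bar exceeds 1.89%.

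Genes that directly flank the 9 were looked at too, counting the nearest tested pair on each side, 31 genes that are not among the 9. Between B2-labelled and wild type lungs edgeR called 0 of the 31 in hypoxia (0.923% of all tested genes; 6 at an unadjusted p under 0.05, and 2 by DESeq2) and 11 in normoxia (35.5%, against 9.49% of all), 7 higher and 4 lower. With 1 library left out the normoxic count was 3 to 10, the lowest without B2-labelled replicate 0 or wild type replicate 2. Of the 11, 6 had a log2 change of at least 1 in size in normoxia after rounding, with Slc16a11 at 0.998 before it. They were Sost beside Meox1 (0.94 in hypoxia and 3.73 in normoxia), 2810408A11Rik beside Kctd11 (0.35 and 1.57), Nlrp1b beside Nlrp1a (0.41 and 1.23), Asgr1 beside Mgl2 (0.15 and 1.16), Slc16a11 beside Clec10a (0.01 and 1.00), and 6330403K07Rik beside Nlrp1a (-1.01 and -1.27). The last is the 1 flanking gene with a log2 change of at least 1 in size in the same direction in both exposures. The share of flanking genes called was not tested against that of all genes.

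Likeness between genes was measured as Pearson's r of log2 CPM over the 18 libraries, as a description, since the libraries share the group structure. Sp6 and Meox1 were each other's most alike gene (r = 0.95), and Sp6 was also the most alike to Kctd11 (0.92). Second for Sp6, Meox1 and Kctd11 was Atp6v0c on chromosome 17 (0.93, 0.90 and 0.91). For Xaf1 the 2 most alike genes were Glo1 (0.97) and H2-Ea-ps (0.96), and for Tlcd2 C4a (0.95) and H2-M2 (0.94), all on chromosome 17. For Nlrp1a they were Atp6v0c on chromosome 17 (0.91) and 2610035D17Rik on chromosome 11 (0.90). For Cd300lg they were Zfp758 on chromosome 17 (0.89) and Pdzrn3 on chromosome 6 (0.88). For Mgl2 they were Sdc4 (0.93) and 2610307P16Rik (0.92), and for Clec10a Ptpn2 and Znhit6 (0.88 each). Mgl2 and Clec10a had r = 0.64 over the libraries and 0.27 once group means were taken off, and Cd300lg and Meox1, which lie near each other, had 0.64 and -0.30.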

How the data were processed

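Per the labels' protocols, poly(A)-selected RNA from frozen lung went into 18 libraries made with the NEBNext Ultra kit, which marks no strand. The submitters' processing notes name FastQC, TopHat and Cuffdiff, and the build mm10, with versions not given in the sources used here. Deposited were the authors' estimated counts per gene and library (93.3% of values whole), FPKM values, and a Cuffdiff table whose test score and q-value were used. Of 23356 features, 5 with the status HIDATA were left out and 20 with FAIL kept.

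After rounding, counts were fitted in edgeR 4.0.16 (R 4.3.3) with TMM scaling and filterByExpr, as 1 quasi-likelihood model over 18 libraries. Adjusted p (Benjamini-Hochberg) cover 15388 genes, with a threshold of 0.05. CPM use TMM-scaled library totals, SE are of the log2 change, and approximate 95% intervals come from the SE. As alternatives, DESeq2 1.42.0 and its size factors were run, and edgeR without the filter, within the compared groups alone, with replicate numbers as a block and with each library left out. In addition limma 3.58.1 was run on log2(FPKM + 1), with an FPKM minimum of 1 or none, and on log2(FPKM + 0.1). A fit without the 2 libraries of lowest total was chosen after seeing the data. Replicate libraries differed by more than sampling noise. Figures were drawn with matplotlib 3.10.9.

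The 9 genes and all lists were chosen with earlier results of these data known. Genes named were the 9, both arrestin genes, up to 4 called per list and contrast by smallest p, the 2 most alike genes of each of the 9, and genes within 5 Mb of Arrb2 called in the same direction in both exposures, of which there was none. Gli1, Gli2, Ptch1, Smo, Tmem88 and the flanking genes shown were picked after their values were seen. Gene positions are those of the deposited table, 1-based, and sequences are from RefSeq (GRCm38.p6) and GENCODE M21.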

Additional observations from a re-analysis of the deposited data

Results flagged for a closer look

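Mgl2 stood out because its B2-labelled libraries lay on opposite sides of wild type in the 2 exposures. In hypoxia all 3 were below the wild type libraries (log2 change -0.60) and in normoxia all 3 were above them (0.34). The difference between the exposures was not tested, since the gene was chosen on these comparisons.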

How the results depend on the processing

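The call of Cd300lg with hypoxia held under every alternative run, with log2 changes of -1.77 to -1.42 in β-arrestin 1 −/− and -1.71 to -1.36 in wild type. The number of the 9 genes called with hypoxia in β-arrestin 1 −/− was 2 with DESeq2 (Meox1 added), 2 without the 2 libraries of lowest total (Clec10a added), and 1 to 2 with 1 library left out. In β-arrestin 1 −/− against wild type normoxia it was 1 with DESeq2 and 1 without the 2 libraries of lowest total (Clec10a in each), and 0 whichever library was left out. The share of all genes called under each alternative is not given beside these counts, so nothing about the 9 genes is read from them. The count within 5 Mb of Arrb2, B2-labelled against wild type, was in hypoxia 7 with DESeq2, 1 with limma on log2(FPKM + 1) and no minimum, 0 with only the groups compared, 7 without the 2 libraries of lowest total, 1 within 1 Mb, 6 within 10 Mb, 6 with the 9 genes counted in, and 0 to 4 with 1 library left out. In normoxia it was 19 within 1 Mb and 8 to 28 with 1 library left out. Apart from fewer libraries, other genes or other windows, the cause of these moves was not tested. Of the 9 genes, 6 had a log2 change of at least 1 in size and in the same direction in both exposures, 4 to 6 under the alternatives; a pseudocount of 1 makes the changes of low genes smaller. With the replicate number as a block, the calls were 1 of 9 for hypoxia in each of β-arrestin 1 −/− and wild type, 0 for the 2 genotype comparisons and the difference of responses, and 2 in hypoxia and 27 in normoxia within 5 Mb. Deviations of same-numbered libraries correlated at -0.21 to 0.46, and in no comparison was every pair over 0.1. The highest were in β-arrestin 1 −/− against wild type hypoxia, at 0.46, -0.02 and 0.26 for replicates 0, 1 and 2. Whether same-numbered libraries share a batch was not tested. Depth limits Nlrp1a most, with 0 to 19 fragments a library.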
